A study of Mus musculus with 2 samples.

Results

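Respiratory complex I is the first enzyme of the mitochondrial electron transport chain. It takes electrons from NADH, passes them along iron-sulfur clusters to ubiquinone, and pumps protons across the inner membrane. A matrix arm carries the redox groups and a membrane arm carries the proton channels, and around the catalytic core sit many accessory subunits that hold the complex together. Dopaminergic (DA) neurons of the substantia nigra are known to be sensitive to its loss, and rotenone and MPP+, both of which inhibit it, are classical toxins in models of Parkinson's disease. The genes described here are the nuclear-encoded structural subunits, chosen by their symbols: Ndufa, Ndufab, Ndufb, Ndufc, Ndufs or Ndufv followed by a number. The rule found 37 of the 31252 gene rows of the count table, and it leaves out the assembly factors of the Ndufaf family. All 37 passed the minimum of a mean of 10 counts over both libraries, the lowest single value being 422 counts.

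RNAseq was done on ventral midbrain of 2-month-old mice, with a single library for Ctrl and a single library for OE. The Ctrl mouse is described as carrying Slc6a3-Cre, which is active in cells that express the dopamine transporter. The OE mouse carries Slc6a3-Cre together with CAG-S-COUP-TFII, a transgene that makes COUP-TFII once Cre has acted. Both are labelled as incipient congenic C57BL/6. In the crosses given in the study's methods, every pup also receives at least 1 floxed allele of Tfam, a gene needed to keep and transcribe mitochondrial DNA, while the labels of these libraries do not name Tfam. Total counts were 16984336 (labelled Ctrl) and 21326632 (labelled OE). With 1 library per group, differences here have no replicate check and no test across animals exists. Wherever 2 values of a gene are given below, the library labelled Ctrl comes first and the library labelled OE second.

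The labels were checked first. Nr2f2, the gene for COUP-TFII, had 637 and 377 counts (log2 fold change -1.07, 95% counting interval -1.26 to -0.88), so the overexpressed gene goes against the labels. The transgene acts only in cells with Cre, and the study measured its effect on COUP-TFII mRNA in isolated DA neurons. Nr2f2 of the whole tissue therefore cannot decide whether the labels are swapped. Every direction below compares labelled OE with labelled Ctrl and depends on those labels. The samples are also labelled as dopaminergic neurons, but the tissue was not sorted: markers of oligodendrocytes, astrocytes and microglia were all detected, with no marker of these lists at 0. All 10 markers of DA neurons were higher in the library labelled OE, from log2 0.79 to 2.00, and their summed normalized count was 27185 and 63139. Of the 15246 genes past the count minimum, 51.0% had a log2 fold change above 0 and 17.9% were higher by more than log2 0.2. In bulk tissue, fewer cells of a type and less RNA per cell cannot be told apart.

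Complex I transcripts were more abundant in the library labelled OE as a group, by a small margin. The study describes the opposite direction for its ventral midbrain RNAseq, with many respiratory chain genes repressed in OE mice. All 37 subunits had a log2 fold change above 0, against 51.0% of the 15246 genes tested. Of the 37, 16 (43.2%) were higher by more than log2 0.2, the fold used by the study, against 17.9% of all genes, and 0 were lower by as much, against 16.6% of all genes. Genes with short transcripts passed more often: 35.2% of those of at most 750 bases outside complexes I to V did. With the median of the length bin taken off each gene, 4 of the 37 subunits did. The share of all genes past log2 0.2 after that step was not computed, so these 4 have no background share. The median log2 fold change was 0.17 over the subunits and 0.0046 over all genes. Summed over the 37 genes, complex I took 46335 and 64227 counts, which are 0.273% and 0.301% of each library. After TMM scaling the sums were 51648 and 57620 normalized counts, a log2 fold change of 0.16 with a counting interval from 0.14 to 0.18. Normalized counts are counts divided by a scaling factor that puts both libraries on 1 depth, and counting intervals cover the error of counting reads only, not the variation between mice.

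Depth separated most of these values from counting error. The counting interval lay above 0 for 27 of the 37 subunits, against 15.8% of all genes, and below 0 for 0 of them, against 14.4% of all genes. All 16 subunits past log2 0.2 had an interval above 0, and 9.90% of all genes met both conditions. The interval narrows as counts grow, and complex I transcripts are well expressed. Among the 5526 tested genes whose mean counts lie within the range of the subunits, 8.52% were higher by more than log2 0.2 and the median was 0.0016. These genes were not matched for length: their median transcript was 3331 bases, against 758 for the subunits. The plot of fold changes with their intervals shows the subunits as a continuous series, with no gap at the threshold: Ndufb3 lay just above it at 0.23 and Ndufb9 just below it at 0.19.

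**Figure D1:**
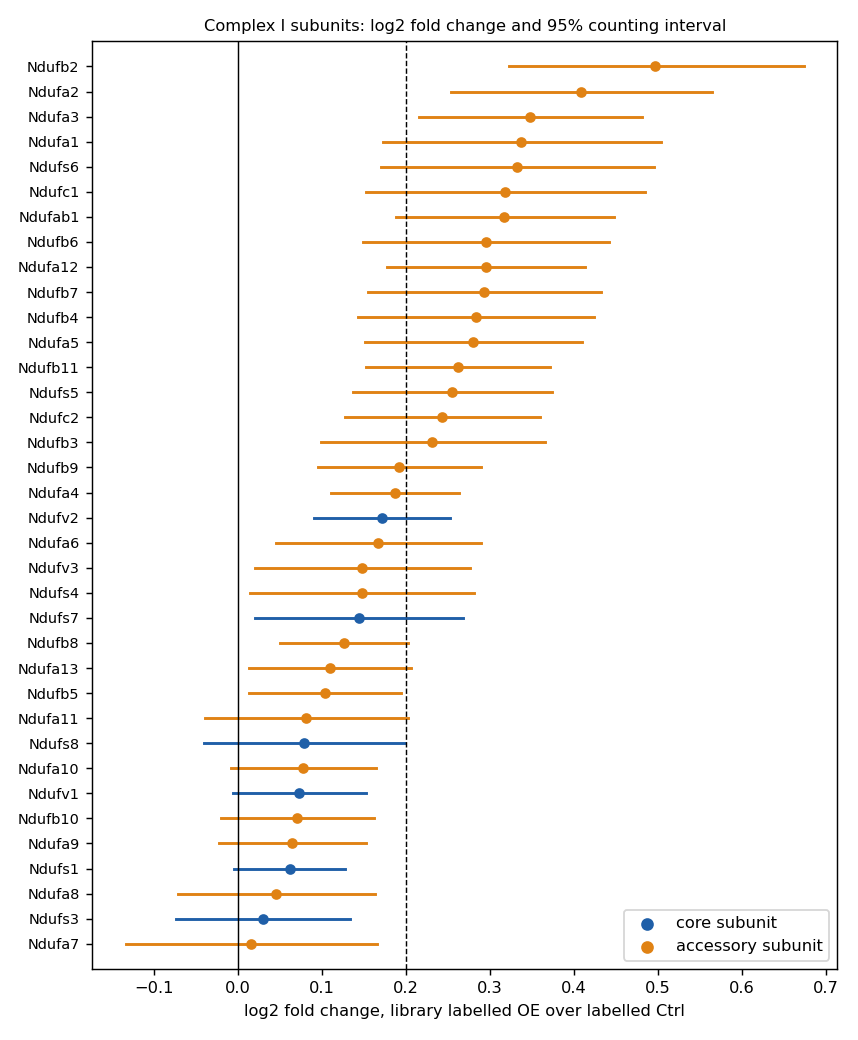
Log2 fold change (library labelled OE over library labelled Ctrl) of 36 of the subunits, with lines for the 95% counting interval, blue for core and orange for accessory subunits, and a dashed line at log2 0.2. The values run from 0.016 (Ndufa7) to 0.50 (Ndufb2), and none of the 6 core subunits shown reaches the dashed line.

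The 7 core subunits encoded in the nucleus carry out the chemistry and have counterparts in bacteria. None of them was past log2 0.2, and their median was 0.079, from 0.030 to 0.17. Ndufv1, which binds NADH and the flavin that takes its electrons, had 2578 and 2712 normalized counts. Ndufv2, an iron-sulfur subunit beside it, had 2365 and 2663. Ndufs1 (GRCm38 chr1:63143596-63176833, minus strand), the largest subunit and the carrier of several iron-sulfur clusters, had 3703 and 3864. These 3 genes form the catalytic part of the N module, the NADH-oxidizing tip of the matrix arm, and their log2 fold changes were 0.073, 0.17 and 0.061. The interval of Ndufv2 (0.090 to 0.25) left out 0, and those of the other two included it.

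Other core subunits belong to the Q module, where ubiquinone is reduced. Ndufs7, which holds the last iron-sulfur cluster before quinone, had 1020 and 1127 normalized counts. Its interval lay above 0 (0.020 to 0.27), at a log2 fold change of 0.14. Ndufs3, an early building block of this module, had 1508 and 1539 normalized counts, and Ndufs8, another iron-sulfur subunit, had 1121 and 1184. A difference in these last genes was not detectable at this depth (0.030, interval -0.074 to 0.13, and 0.079, interval -0.041 to 0.20). Of the accessory subunits of the Q module, Ndufa5 stood at 910 and 1104 normalized counts (log2 fold change 0.28, interval 0.15 to 0.41). Ndufa9, which binds a nicotinamide nucleotide near the quinone site, had 2093 and 2189, and its interval included 0.

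All 16 subunits past log2 0.2 were accessory ones, 16 of 30, with a median of 0.24 over the 30. In the N module, 3 of 10 subunits passed, and these were Ndufa2, Ndufs6 and Ndufa12. Ndufa2, a small protein with a thioredoxin-like fold, had 606 and 805 normalized counts (0.41, interval 0.25 to 0.56). Ndufs6, a zinc-binding subunit, had 573 and 721 (0.33, interval 0.17 to 0.49). Ndufa12 had 1091 and 1339 (0.29, interval 0.18 to 0.41). The other accessory subunits of the tip were closer together: Ndufs4, whose loss in mice is a widely used model of Leigh syndrome, had 883 and 978 normalized counts, Ndufv3 964 and 1068, and Ndufa6, which binds the acyl carrier protein, 1047 and 1175. Ndufa7 had the smallest difference of all 37 subunits, with 740 and 748 normalized counts (0.016, interval -0.13 to 0.16).

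**Figure D2:**
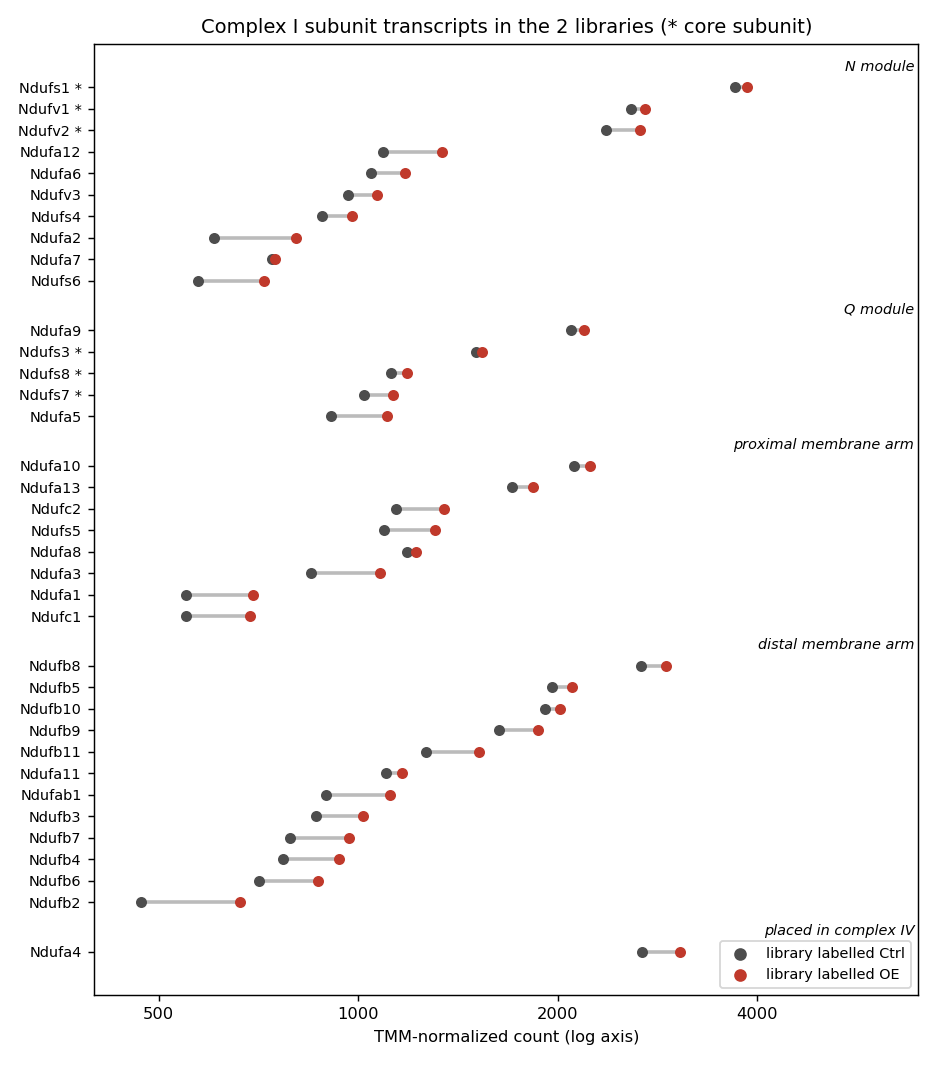
TMM-normalized counts (log axis) of 36 of the subunits in the library labelled Ctrl (grey) and the library labelled OE (red), 1 point per library, grouped by module, with stars for core subunits. The red point lies to the right of the grey point in every row, from a gap of 740 to 748 in Ndufa7 to one of 470 to 664 in Ndufb2.

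In the membrane arm the share of subunits past log2 0.2 was 5 of 8 in the proximal part (median 0.25) and 7 of 12 in the distal part (median 0.25), compared with 3 of 10 in the N module (median 0.16) and 1 of 6 in the Q module (median 0.091). Over all tested genes the share was 17.9%, and over those of at most 750 bases outside complexes I to V it was 35.2%. All core subunits of the membrane arm are encoded by mitochondrial DNA, so its nuclear subunits are accessory ones only. The shares are thus not like for like, since the N and Q modules include the 7 nuclear core subunits, of which 0 passed. Median transcripts were also longer in the N and Q modules (1086 and 960.5 bases) than in the proximal and distal parts (604 and 718). No row of the table carries the symbols Nd1 to Nd6, and these genes were not analysed here. Near the matrix arm, Ndufa3 had 848 and 1079 normalized counts (0.35, interval 0.22 to 0.48). Ndufa1, an X-linked single-pass subunit, had 550 and 694 (0.34, interval 0.17 to 0.50), and Ndufc1 had 551 and 686 (0.32, interval 0.15 to 0.48). These 3 genes had the largest differences of the proximal part. Ndufs5, a cysteine-rich subunit facing the intermembrane space, had 1095 and 1306 normalized counts (0.25). Ndufc2 had 1139 and 1348 (0.24). Ndufs5 is the single member with fractional expected counts (982.21 and 1455.87), such as RSEM gives when reads match more than 1 place. The other 3 proximal subunits stayed under the threshold. Ndufa13, also known as GRIM-19 and with Ndufs6 among the genes for which the study lists primers, had 1703 and 1837 normalized counts (0.11, interval 0.013 to 0.21). For Ndufa10 (2119 and 2237) and Ndufa8 (1184 and 1222) the interval included 0.

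At the far end of the membrane arm, Ndufb2 (GRCm38 chr6:39592574-39603382, plus strand) had the largest difference of the family. It rested on the lowest counts, 422 and 740, or 470 and 664 after normalization, with a log2 fold change of 0.50 (interval 0.32 to 0.67). Ndufab1, the mitochondrial acyl carrier protein, which also serves fatty acid synthesis, had 895 and 1115 normalized counts (0.32, interval 0.19 to 0.45). After these came Ndufb6 with 708 and 868 normalized counts (0.29), Ndufb7 with 790 and 968 (0.29), and Ndufb4 with 769 and 936 (0.28). Ndufb11, which is X-linked, had 1267 and 1520 (0.26), and Ndufb3 had 865 and 1016 (0.23). The intervals of these 5 genes all lay above 0. Below the threshold were Ndufb9 (1632 and 1864 normalized counts), Ndufb8 (2669 and 2912), Ndufb5 (1957 and 2103), Ndufb10 (1916 and 2012) and Ndufa11 (1102 and 1166), and the intervals of Ndufb10 and Ndufa11 included 0. Ndufb8 is the subunit by which complex I is often followed on protein blots. Ndufa4, found by the symbol rule, is now placed in complex IV. It had 2682 and 3053 normalized counts (0.19, interval 0.11 to 0.26), and without it the median of the other 36 genes was 0.17.

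The subunits did not differ by 1 common factor between the libraries, beyond counting error. This comparison is made within each library and no scaling moves it. For every 100 counts of Ndufs1, there were 12.7 and 17.2 counts of Ndufb2. The same ratio for Ndufa2 was 16.4 and 20.8, and for Ndufs6 it was 15.5 and 18.7. In all, 15 of the 37 subunits had a counting interval wholly above that of Ndufs1, and 0 of the 7 core subunits were among them. Ndufs1 ranked 34 of the 37 by log2 fold change, so this count rests on a reference near the bottom of the family. The share of all tested genes with an interval above that of Ndufs1 was not computed. Ndufs1 also has the longest transcript of the 37, at 2590 bases, and over all tested genes the median log2 fold change went down with length. Ndufb2, Ndufa2 and Ndufs6 ranked 1, 2 and 5.

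Transcript length moved with these differences. Complex I subunits are small proteins, and 18 of the 37 have a reference transcript of at most 750 bases, compared with 3.07% of the 13395 tested genes with a length. Of these 18, 11 were higher by more than log2 0.2, against 5 of the 19 longer ones. Among tested genes outside complexes I to V with transcripts of at most 750 bases, 129 of 366 (35.2%) were also higher by more than log2 0.2. Across all tested genes the median log2 fold change went down from one length bin to the next, from 0.21 at up to 500 bases to 0.13 at 500 to 750, 0.088 at 750 to 1000, 0.058 at 1000 to 1500, 0.019 at 1500 to 2500, -0.012 at 2500 to 5000 and -0.038 above 5000. Over the 37 subunits, length and log2 fold change had a Spearman rho of -0.55 and a Pearson r of -0.53 with log2 length. Over the 13395 genes rho was -0.17. These correlations run across genes of the same 2 libraries, and genes are not independent replicates.

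With the median of its own length bin taken off each gene, a calculation added after the data were seen, 4 of the 37 subunits were past log2 0.2 and the median of the family was 0.11. The 4 were Ndufb2, Ndufa2, Ndufab1 and Ndufs6, and 29 of the 37 subunits stayed above the median of their bin. The share of all tested genes past log2 0.2 on that scale was not computed. Core transcripts are long, with a median of 1623 bases and a shortest of 758 (Ndufs7). The 12 accessory transcripts at least that long had a median log2 fold change of 0.15, the 18 shorter ones 0.27, and the 7 core transcripts 0.079. The part of transcript length in the complex I result was not tested.

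**Figure D3:**
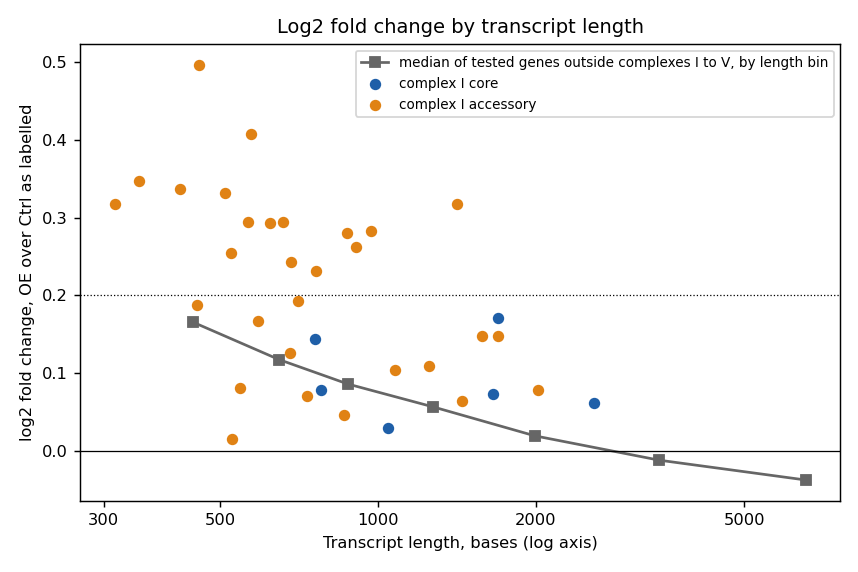
Log2 fold change against transcript length in bases (log axis) for 6 core (blue) and 30 accessory (orange) subunits, with grey squares for the median of tested genes outside complexes I to V in each length bin. The grey medians go from 0.17 in the shortest bin to -0.038 in the longest, and most subunits lie above them.

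The relative levels of the subunits were compared per kilobase of transcript. The median over the family was 1402 and 1518 normalized counts per kilobase. Ndufa4 was the highest in both, at 5933 and 6754, followed by Ndufb8 at 3924 and 4282. The lowest was Ndufs4, at 520 and 576, and next to it Ndufv3 at 609 and 675. The genes found by the rule thus spanned a wide range of transcript levels, and Ndufs4 and Ndufv3 held the lowest positions in both libraries. Such levels depend on the transcript chosen for the length. The exons of all annotated forms together cover 4375 bases in Ndufb2 and 4387 in Ndufab1, against 455 and 1416 bases in the transcripts used.

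Markers of several cell types also differed between the libraries. Summed normalized counts of 8 markers of neurons of any type were 115890 and 127687, a log2 fold change of 0.14 (interval 0.13 to 0.15), beside 0.16 for summed complex I. These markers went both ways, with 6 higher and 2 lower, and Rbfox3 lay at -0.21 (interval -0.32 to -0.095). Markers of the glial cells were mostly below 0, as were 49.0% of all tested genes. Summed oligodendrocyte markers had a log2 fold change of -0.26, with 8 of 8 lower, astrocyte markers -0.12, with 7 of 8 lower, and microglia markers -0.33, with 7 of 8 lower. The interval lay below 0 for 8 of 8 oligodendrocyte markers, 3 of 8 astrocyte markers and 3 of 8 microglia markers, and above 0 for the astrocyte marker S100b. Of 8 thalamus markers 8 were lower, from -0.17 (Calb2) to -2.85 (Rgs16), with a median of -1.09. By more than log2 0.2, 7 of the 8 were lower, against 16.6% of all genes. The sum of the 8 had a log2 fold change of -0.52. The part of tissue composition in the complex I result was not tested, and with 1 piece of tissue per genotype it cannot be told apart from genotype.

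Other genes of the respiratory chain had differences of similar size. Of 45 nuclear-encoded subunits of complexes II to V that passed the count minimum, 19 (42.2%) passed log2 0.2 upward and 2 (4.44%) downward. Over all tested genes these shares were 17.9% and 16.6%. The median of the 45 was 0.19. The interval lay above 0 for 18 of the 19, namely Cox8a, Atp5k, Uqcrq, Usmg5, Cox5a, Cox5b, Uqcr11, Uqcrh, Atp5e, Atp5g3, Cox6a1, Cox7b, Atpif1, Cox6c, Uqcr10, Atp5l, Cox6b1 and Sdhb, from 0.50 (Cox8a) down to 0.20 (Sdhb). The 2 on the lower side, Cox6a2 and Cox4i2, had at most 32 counts. Cox6a2, with 21 and 4 counts, had an interval below 0 (-2.55, interval -4.71 to -1.14). That of Cox4i2 included 0 (-0.45, interval -1.23 to 0.32). Complex I assembly factors are proteins that build the complex and do not stay in it. Of the 18 with a row, 7 (38.9%) were higher by more than log2 0.2, against 17.9% of all tested genes. By as much, 0 were lower, against 16.6% of all tested genes, and the median of the 18 was 0.14. The interval left out 0 for 5 of the 7, and included it for Timmdc1 (0.22) and Nubpl (0.27). Ndufaf3 had 252 and 382 counts (0.29, interval 0.054 to 0.52), Ndufaf1 334 and 503 (0.28, interval 0.075 to 0.48), and Ndufaf8, listed under an older name, 51 and 95 (0.58, interval 0.079 to 1.10). Tmem126b had 300 and 447 (0.26, interval 0.048 to 0.48), and Ndufaf5 had 509 and 734 (0.21, interval 0.050 to 0.38). Tmem186 was the only assembly factor below 0, at -0.036, with an interval that included 0. No difference between these lists and complex I was tested.

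**Figure D4:**
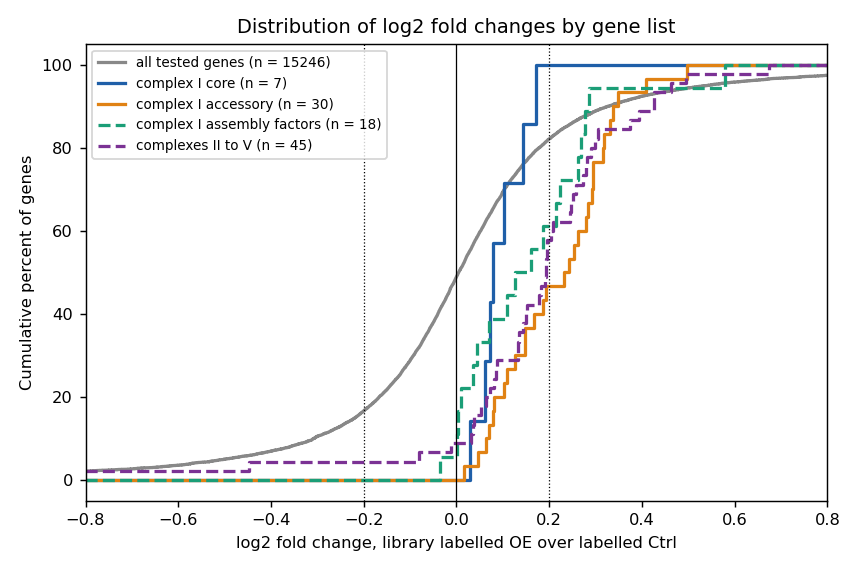
Cumulative percent of genes by log2 fold change (library labelled OE over library labelled Ctrl) for all 15246 tested genes, the 7 core and 30 accessory complex I subunits, 18 assembly factors and 45 subunits of complexes II to V, with dotted lines at log2 -0.2 and 0.2. The core subunits end at 0.17, while 53.3% of the accessory subunits lie to the right of 0.2, as do 17.9% of all tested genes.

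Because all subunits lay on 1 side of 0, their promoters were read for short motifs. NRF1 and YY1 are known activators of nuclear genes for respiration, and COUP-TFs bind repeats of the nuclear receptor half-site AGGTCA. RefSeq promoter windows on GRCm38.p6, the assembly also called mm10, were found for 33 of the 37 subunits and span 250 bases before to 50 bases after the start site. Motifs were searched on both strands. The NRF1-like motif, GCGC then any base then TGCGC, was in 7 of 33 subunits (21.2%), and in 10.5% of 10903 tested genes and 5.19% of all genes with a promoter. The YY1-like motif AANATGGCG was also in 7 of 33 (21.2%), and in 5.35% of tested genes and 2.76% of all genes. The half-site AGGTCA was in 7 of 33 subunits (21.2%), and in 14.8% of tested genes and 18.1% of all genes. The same half-site repeated in the same direction after 1 base was in 0 of 33 subunits and in 4 of the 10903 tested genes (0.0367%), too few for the 0 to say anything about the subunits. Other motifs were less frequent in the subunits than in tested genes. The ETS motif CCGGAAGT was in 1 subunit (3.03% against 8.13%), the GC box GGGCGG in 15 (45.5% against 68.0%) and the CCAAT box, searched as CCAAT, in 10 (30.3% against 42.7%). A match is a description of the sequence and not a binding site.

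**Figure D5:**
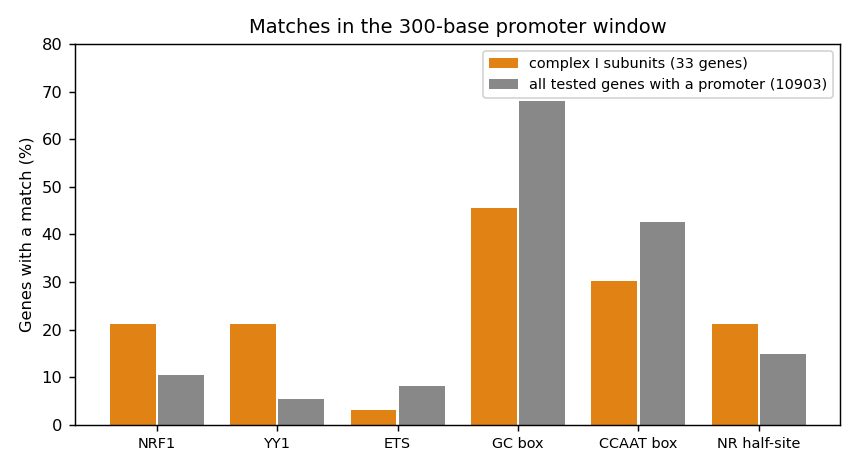
Percent of genes with a match in the promoter window for 33 complex I subunits (orange) and 10903 tested genes (grey), for each of 6 motifs, where NR half-site is the nuclear receptor half-site. The subunits lie above all tested genes for NRF1 and YY1 (21.2% in both) and below them for the GC box (45.5% against 68.0%).

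A group of 5 YY1-like matches shared a place, and they are shown for that reason. In Ndufs6, Ndufc1, Ndufs4, Ndufs7 and Ndufa9 the match lies 22 to 35 bases after the start site, and its ATG is the annotated start codon, so coding sequence is part of the match. Capitals mark the match, with up to 8 bases on each side, on the strand of the gene.
Ndufs6 (chr13:73328433-73328457, minus strand): tcaccggcAAGATGGCGgcggtgct
Ndufc1 (chr3:51408917-51408941, minus strand): tgcggaacAAGATGGCGccgtccgt
Ndufs4 (chr13:114388045-114388067, minus strand): cctacaggAAGATGGCGgcggtc
Ndufs7 (chr10:80249465-80249489, plus strand): ccgaggccAAGATGGCGgcgctggc
Ndufa9 (chr6:126849099-126849123, minus strand): tgtgggagAAGATGGCGgccgccgt

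All 5 carried the same 9 letters, and their log2 fold changes were 0.33, 0.32, 0.15, 0.14 and 0.064 in the order shown. Genes with this site were thus found near the top and near the bottom of the family. The NRF1-like matches lay in Ndufs5, Ndufa5, Ndufs6, Ndufb4, Ndufa6, Ndufa11 and Ndufa8, with log2 fold changes of 0.25, 0.28, 0.33, 0.28, 0.17, 0.081 and 0.046. Ndufb4 held 3 such matches, more than any other subunit. For Ndufs5 and Ndufa11, one past log2 0.2 and one not, the stretch upstream of the start site that holds the match and lies outside annotated exons is shown, with the match in capitals.
Ndufs5 (chr4:123718203-123718286, minus strand): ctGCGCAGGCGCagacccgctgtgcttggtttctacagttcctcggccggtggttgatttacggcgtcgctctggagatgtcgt
Ndufa11 (chr17:56717686-56717761, plus strand): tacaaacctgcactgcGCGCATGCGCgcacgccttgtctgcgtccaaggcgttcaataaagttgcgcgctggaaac

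In Ndufs5 the match begins at position -98 and in Ndufa11 at position -60, with the start site as 0. The match of Ndufa11 reads the same on both strands. Of the subunits with the AGGTCA half-site, Ndufb2, Ndufb4, Ndufa5 and Ndufs5 were past log2 0.2, and Ndufb10, Ndufs8 and Ndufa11 were not.

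Some subunits share exonic bases with other genes, and whether this touched their counts was not tested. Exons of Ndufb6 share 39.0% of their bases with Smim27 and exons of Ndufa13 share 30.0% with Tssk6, both on the opposite strand. Exons of Ndufb9 share 28.6% with a gene model on the same strand. The kit keeps strand, but whether the counting used it is not given in the sources used here. Processed pseudogenes at least 95% identical over at least 50% of the transcript were found for Ndufs3 and Ndufb11 in GENCODE M21, and neither pseudogene has a row under that name in the counts.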

How the data were processed

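Ventral midbrain RNA of 1 mouse labelled Ctrl and 1 labelled OE was made into stranded polyA libraries and read from both ends over 50 bp by a sequencing company. The authors deposited expected counts per gene from RSEM, unscaled, for 31252 gene rows, of which 95.4% of values are whole numbers. The submitters' processing notes name mm10, and the aligner, RSEM version and annotation are not given in the sources used here. Each column was matched to its label by number (77 and 78).

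Counts were scaled with TMM (edgeR 4.0.16, R 4.3.3), and 0.5 normalized counts were added before taking log2 ratios. Genes with a mean under 10 counts were left out, which kept 15246. Expected counts were rounded, and 95% Clopper-Pearson intervals were put on the split of each gene's counts (scipy 1.17.1, numpy 2.4.6, pandas 2.3.3, Python 3.11.15). A single subunit is counted in every total, and its own values are not reported here. With 1 library per group no p-value was computed. The summed counts of the subunits, 46335 and 64227, set the precision of the family's sum. Subunits were placed in modules, and assembly factors, complexes II to V and markers were listed, from general knowledge. Ndufb1 and Coa1 of those lists had no row. Values are given for core subunits, those past log2 0.2 with an interval leaving out 0, those near the threshold, the extremes in level per length, and Ndufa13 and Ndufs6. The members, lists and motifs were chosen with earlier results of these data known. Transcript length is that of the shortest basic GENCODE M21 transcript with the longest coding sequence, found for 87.9% of tested genes. Similar transcripts were sought with BLAST 2.17.0, and figures drawn with matplotlib 3.10.9. Intervals were tested on simulated data with Poisson counting error only, which holds no variation between mice. Alternatives were scaling by total counts, upper quartile and DESeq2 1.42.0 size factors, a pseudocount of 5, count minimums of none and 100, thresholds of log2 0.1 and 0.3, and leaving out Ndufa4.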

Additional observations from a re-analysis of the deposited data

How the results depend on the processing

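No paired analysis was possible because the design holds only 1 library per genotype. No median, sum or fold change of Nr2f2 turned in sign over the recalculations, and 0 subunits were lower by more than log2 0.2 in any. Of the 63 recalculations, 11 were counts of subunits higher and 11 counts of subunits lower, which have no sign. Count minimums could not drop a subunit, as the lowest value was 422 counts. A threshold of log2 0.3 could not raise a count of 0 found at log2 0.2. All 37 subunits stayed higher in the library labelled OE under each of the 4 scalings. The count past log2 0.2 was 16 by total counts and 18 by the upper quartile. Past log2 0.1 it was 27 and past log2 0.3 it was 7, since the threshold sets how many can pass. With length-bin medians taken off, an alternative added after the data were seen, it was 4, and the share of all genes was not computed. On that scale 8 of the 37 subunits lay below 0, the family's median was 0.11 and that of accessory subunits 0.13. The median of complexes II to V was 0.18 by total counts and 0.21 by the upper quartile, and the log2 fold change of Nr2f2 stayed between -1.08 and -1.06. The median over all genes lay between -0.011 and 0.018 under the 4 scalings. Among all genes past log2 0.2, 51.8% were higher, 47.9% by total counts and 55.4% by the upper quartile. The 10 subunits whose interval included 0 had the smallest log2 fold changes of the family, from 0.016 (Ndufa7) to 0.081 (Ndufa11). Among them was Ndufs1, which had the most counts of the 37 subunits (3322 and 4307). Having 1 library per group limits every comparison.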
